A study of Mus musculus with 6 samples.

Results

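The protocadherins are the largest branch of the cadherin superfamily, cell adhesion proteins whose extracellular domains bind copies of themselves on neighbouring cells. In mammals one part of the family lies in 3 gene clusters, named alpha, beta and gamma. There each neuron is known to use only some of the alternative promoters, and the resulting mixture of proteins lets it tell its own branches from those of other neurons. The other members, the non-clustered protocadherins, are single genes that act in cell sorting, axon growth and synapse formation. In mice, gamma protocadherins are also known to be needed for the survival of spinal interneurons and for the branching of touch sensory neurons.

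Every row of the count tables whose gene symbol begins with Pcdh was taken, which gave 36 of 38926 symbols. They divided by name into 24 clustered members and 12 non-clustered ones. The 22 beta-cluster genes, Pcdhb1 to Pcdhb22, each had a row. The tables used here held 1 row with an alpha symbol, Pcdha2, and 1 with a gamma symbol, Pcdhga9. The annotation consulted here, GENCODE release M21 on GRCm38, names 13 alpha and 22 gamma genes. The sources used here do not say which reads these 2 rows collect, so they are described as the alpha row and the gamma row, and the C-type genes (Pcdhac1, Pcdhac2, Pcdhgc3, Pcdhgc4 and Pcdhgc5) are not analysed here.

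The RNA came from lumbar L3, L4 and L5 dorsal root ganglia, which hold the cell bodies of the sensory neurons of the hind limb. All mice were wild type C57BL/6 males aged 6 to 8 weeks. There were 3 libraries from mice with a burn injury, taken on day 3, and 3 from control mice, and the labels name no further treatment. The title of 1 burn library has no number, and that library is called burn 3 here. Its title marks it as ipsilateral, as the series' design text spells out, and the side of the other libraries is not stated. The labels call the tissue both whole ganglion and neurons, and they describe extraction from whole ganglia. Whether each library is a separate animal is not stated in them. The p-values thus describe the spread among the 6 samples, and part or all of that spread may be technical.

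Between 17273908 and 81968142 reads were counted in genes per library. Burn 3 and control 3 were the deepest, at 70002671 and 81968142 reads, and they stood apart from the other 4 libraries on the first principal component, which held 39.4% of the variance. Markers of sensory neurons, satellite glia and Schwann cells were present in every library, and the 12 neuronal markers summed to between 10345 and 12393 CPM (reads in a gene per 1000000 reads of the scaled library size) after the burn, against 11068 to 13759 CPM in controls. Of the 12 neuronal markers 11 had a log2 fold change below 0 (median -0.11) and all 5 macrophage markers found had one above 0 (median 0.33), with 0 in either list at an unadjusted p under 0.05. Of the 9 marker lists, that of spinal cord, a tissue next to the ganglia, was the one whose sums did not overlap between the groups. All 11 tested members of that list (of 14) had a positive log2 fold change, 9 of them at an unadjusted p under 0.05 and 0 with an adjusted p under 0.05 by edgeR's quasi-likelihood test. Over all genes tested, 52.1% had a positive log2 fold change and 2.04% were higher at an unadjusted p under 0.05. The 14 spinal cord markers together summed to 90.01 to 183 CPM after the burn and 48.0 to 88.0 CPM in controls. Of these markers, Chat in control 2 and Lhx5 in control 1 had 0 reads. In ganglia measured whole, fewer cells of a type and less RNA per cell cannot be told apart.

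Dorsal root ganglia carried abundant protocadherin transcripts in both groups, and burn injury went with no change in any member that passed the test. Summed over all 36 members, the family stood at 964 ± 98.4 CPM after the burn and 891 ± 109 CPM in controls (SD, n = 3 each), a log2 ratio of 0.11. The difference between the groups was smaller than the SD within either, and the log2 ratio ran between 0.026 (without burn 3) and 0.21 (without control 3) as each library was left out. Of the 36 members, 35 had enough reads to be tested, and 0 were called by edgeR's quasi-likelihood test at an adjusted p under 0.05. Over all 17534 genes tested 0.0228% were called. DESeq2 and limma-voom also called 0 members. At an unadjusted p under 0.05 there was 1 member with a higher level after the burn, Pcdh15, and 0 with a lower one, while 2.04% of all genes were higher and 0.924% lower at that level, 2.96% in either direction.

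The members' log2 fold changes lay between -0.27 and 0.81, with a median of 0.12, against a median of 0.01 over all genes tested. They were above 0 in 28 of the 35 members (80.0%) and below 0 in 7, where 52.1% of all genes tested were above 0. The 95% interval of the log2 fold change, which comes from the edgeR fit and is not adjusted for the number of genes, lay within -1 to 1 for 32 members. It reached past 1 for Pcdh15, Pcdhb3 and Pcdh20, and below -1 for Pcdh20. A change of 2-fold thus lies within the interval of each of these 3 genes. The intervals stayed within a 1.5-fold change either way for 15 members.

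**Figure D1:**
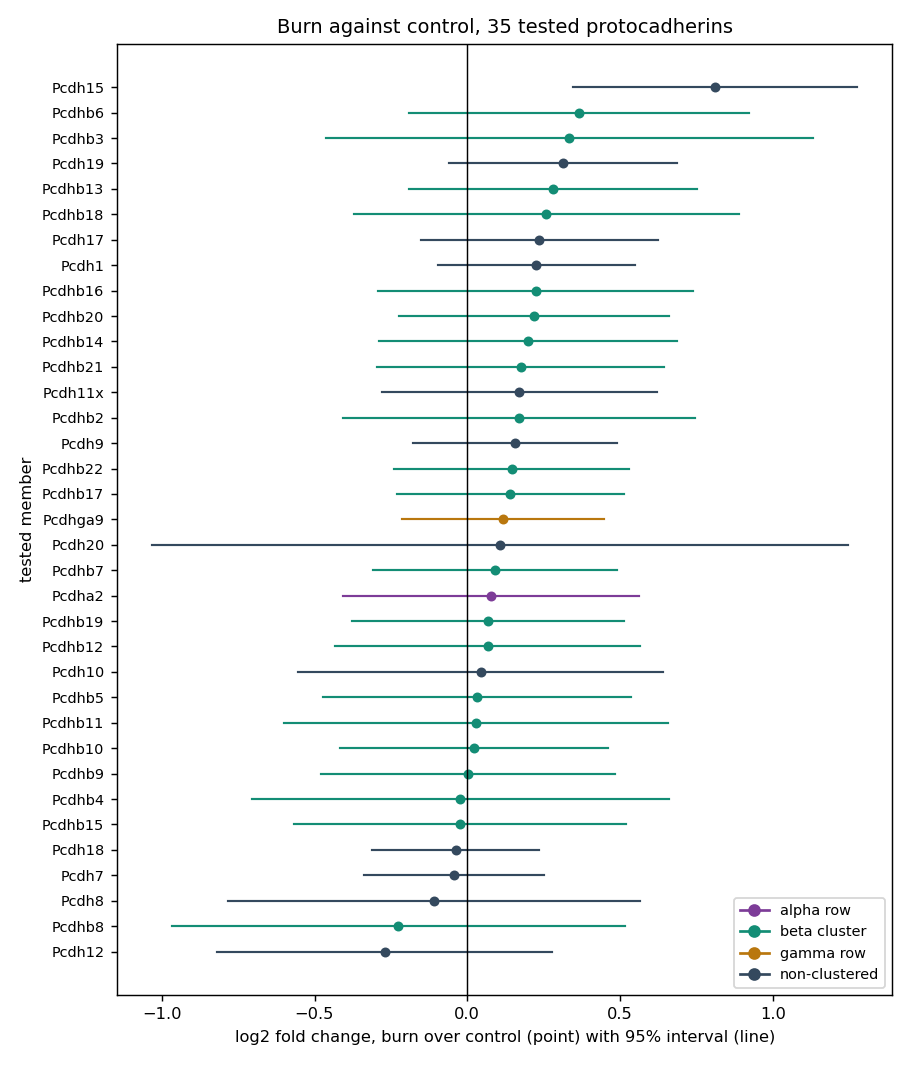
Log2 fold change of each of the 35 tested protocadherins, burn over control (horizontal axis), with its 95% interval from the edgeR fit as a line; members run from the highest value at the top to the lowest at the bottom. The interval of Pcdh15 lies above 0, from 0.34 to 1.28, and the intervals of the other 34 members include 0.

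Pcdh15 had the lowest unadjusted p of the family. It encodes protocadherin 15, which with cadherin 23 forms the tip links of hair cells in the inner ear, and its transcript is also known from oligodendrocyte precursors of the central nervous system. The gene lies on chromosome 10 at 73099342 to 74649737 (GRCm38), and no exon of another annotated gene overlaps its exons. Reads in it numbered 75, 115 and 241 in burn libraries 1, 2 and 3, against 69, 44 and 150 in control libraries 1, 2 and 3. On the normalised scale these were 3.31, 3.81 and 3.67 CPM after the burn, against 1.88, 2.45 and 1.88 CPM in controls. Every burn library stood above every control library, as it did for 4.33% of all genes tested. The log2 fold change was 0.81 (SE 0.20, 95% interval 0.34 to 1.28). It ranked 60 of 17534 by unadjusted p (0.00405), and did not pass over all genes (adjusted p 0.9998 by edgeR, 0.242 by DESeq2 and 0.953 by limma-voom).

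The difference in Pcdh15 was seen at both depths. On the log2 scale it was 0.96 between the 2 deeper libraries and 0.73 among the 4 shallower ones. Spinal cord markers, with their sums of 90.01 to 183 CPM after the burn and 48.0 to 88.0 CPM in controls, were higher in the same direction. Among the burn libraries their order differed from that of Pcdh15: burn 2 had the highest Pcdh15 (3.81 CPM) and the lowest spinal cord sum (90.01 CPM). That sum was close to that of control 1 (88.0 CPM), where Pcdh15 stood at 1.88 CPM. Most of the sum came from Mobp and Aqp4, at 47.8 and 24.9 CPM in burn 2 and 44.9 and 28.4 CPM in control 1. It thus says little about the other markers of the list. Of the oligodendrocyte lineage genes in that list, Olig1 stood at 3.53, 1.66 and 3.36 CPM after the burn, against 1.15, 1.22 and 0.679 CPM in controls. Olig2 stood at 0.663, 0.331 and 0.684 CPM after the burn, against 0.164, 0.390 and 0.138 CPM in controls. Control 2 lay above burn 2 for it, though on only 7 and 10 reads. Mog stood at 5.34, 2.02 and 4.43 CPM after the burn, against 1.502, 1.56 and 0.591 CPM in controls. Mobp stood at 75.9, 47.8 and 104 CPM after the burn, against 44.9, 53.8 and 19.6 CPM in controls, and control 2 lay above burn 2 for it as well. The part of carried-over spinal cord in the Pcdh15 difference was not tested.

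**Figure D2:**
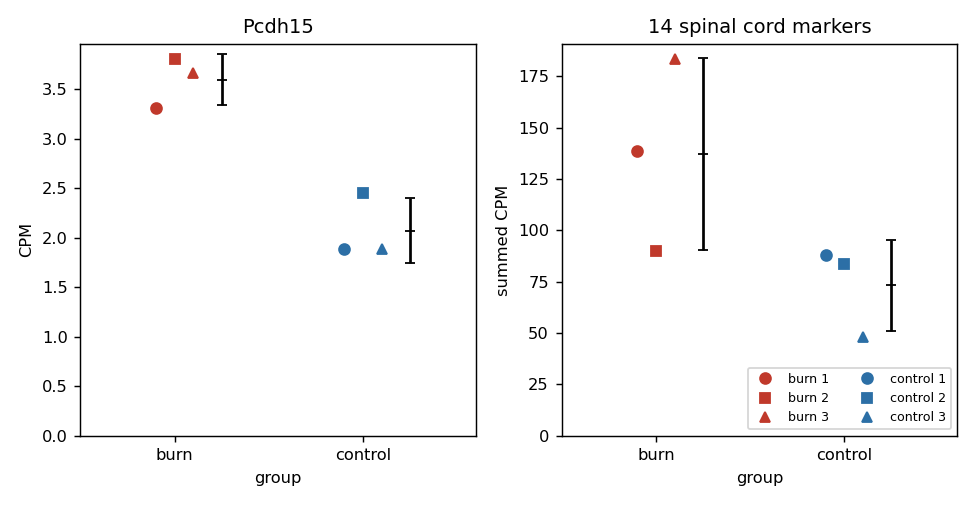
Left, Pcdh15 in CPM in each library; right, the summed CPM of 14 spinal cord markers; burn libraries are red, control libraries blue, marker shapes give the library number, and black bars are mean ± SD (n = 3). Both are higher in all burn libraries than in all control libraries, while burn 2 is highest for Pcdh15 and lowest among burn libraries for the marker sum.

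Promoter sequence was at hand for 9 of the 12 non-clustered genes, as windows of 300 bases from RefSeq (GRCm38.p6) that run from 250 bases before the annotated start to 50 after it. The windows of 3 genes show the span of these 9 genes, with every CpG dinucleotide in capitals. They are the promoter of Pcdh15, the member with the lowest p, at chr10:73821617-73821916 on the plus strand and inside the span that GENCODE gives the gene, that of Pcdh17, the richest in CpG, at chr14:84443313-84443612 on the plus strand, and that of Pcdh20, the poorest, at chr14:88471347-88471646 on the minus strand.
Pcdh15: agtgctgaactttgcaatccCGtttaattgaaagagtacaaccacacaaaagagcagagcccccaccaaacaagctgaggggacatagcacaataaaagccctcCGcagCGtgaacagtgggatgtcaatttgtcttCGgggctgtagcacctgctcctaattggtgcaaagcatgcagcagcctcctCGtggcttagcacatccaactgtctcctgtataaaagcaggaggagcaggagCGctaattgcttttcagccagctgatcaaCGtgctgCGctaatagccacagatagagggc
Pcdh17: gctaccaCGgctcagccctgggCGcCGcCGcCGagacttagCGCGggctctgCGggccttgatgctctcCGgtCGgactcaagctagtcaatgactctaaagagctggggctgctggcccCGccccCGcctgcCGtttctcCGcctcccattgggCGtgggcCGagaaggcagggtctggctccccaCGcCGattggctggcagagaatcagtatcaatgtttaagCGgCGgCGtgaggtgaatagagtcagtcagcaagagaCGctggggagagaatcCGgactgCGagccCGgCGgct
Pcdh20: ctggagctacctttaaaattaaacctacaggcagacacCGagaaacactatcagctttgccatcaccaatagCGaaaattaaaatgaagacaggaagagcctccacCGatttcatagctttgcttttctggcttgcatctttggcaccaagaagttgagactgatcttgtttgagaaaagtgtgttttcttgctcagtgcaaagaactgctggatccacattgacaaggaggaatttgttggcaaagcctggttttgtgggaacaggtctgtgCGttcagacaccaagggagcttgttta

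Pcdh17 had 26 CpG in its window and Pcdh20 had 4, while Pcdh15 had 8, close to the median of 7 over 27025 promoters. The median over the 9 members was 18. The members with the fewest CpG, Pcdh20 and Pcdh15, were also the 2 non-clustered genes with the lowest levels per exon length in these ganglia. Over the 9 genes the Spearman correlation of CpG count with that level was 0.51, given as a description. The AP-1 site TGANTCA and the CRE site TGACGTCA, letters bound by Atf3 and its relatives, were searched on both strands. They were in none of the windows of the 9 members, against 7.93% and 1.88% of all promoters. With 9 windows, finding none does not set these genes apart from such shares. The letters TATAAA, searched on both strands, were in the windows of Pcdh15 and Pcdh8, against 14.2% of all promoters.

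Among the non-clustered genes, Pcdh9, Pcdh1 and Pcdh7 had the highest levels per exon length. These 3 belong with Pcdh11x to the delta-1 group, whose long cytoplasmic tails carry a binding site for protein phosphatase 1. Per kilobase of exon that no other annotated gene covers, Pcdh9 stood at 13.9 ± 1.52 CPM per kb after the burn and 12.4 ± 1.89 in controls (SD, n = 3 each). Pcdh1 stood at 10.3 ± 0.673 CPM per kb after the burn and 8.83 ± 1.44 in controls, and Pcdh7 at 8.71 ± 0.508 after the burn and 8.97 ± 1.24 in controls. Pcdh9 was above Pcdh1 in all 6 libraries, while Pcdh1 and Pcdh7 changed places on this measure, Pcdh1 being higher in 4 of 6. Part of the Pcdh7 exons lies opposite 4932441J04Rik on the other strand. Over all its exon bases Pcdh7 stood at 6.88 CPM per kb after the burn and 7.08 in controls, below Pcdh1 in both groups. The order of Pcdh1 and Pcdh7 thus depends on the length used. Pcdh11x, from the X chromosome, was far lower, at 0.908 ± 0.203 CPM per kb after the burn and 0.808 ± 0.119 in controls.

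None of these 4 genes separated the groups. Pcdh9 had 85.8, 90.5 and 106 CPM after the burn, against 72.2, 83.0 and 97.7 CPM in controls. Pcdh1 had 84.2, 92.4 and 95.7 CPM after the burn, against 65.2, 90.6 and 77.3 CPM in controls, and its log2 fold change was 0.23 (SE 0.14, edgeR unadjusted p 0.144). For Pcdh1, burn 1 lay below control 2, so the groups overlapped. Pcdh7 had 69.1, 77.5 and 72.2 CPM after the burn, against 64.3, 75.8 and 85.1 CPM in controls. The burn values of Pcdh7 lay inside the range of the controls. On the log2 scale Pcdh7 differed by -0.04 (95% interval -0.34 to 0.25), Pcdh9 by 0.16 (-0.18 to 0.49) and Pcdh11x by 0.17 (-0.28 to 0.62). The sign turned for Pcdh7 without control 3 (0.068) and for Pcdh11x without burn 3 (-0.020).

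The delta-2 group, Pcdh8, Pcdh10, Pcdh17, Pcdh18 and Pcdh19, followed at middle to low levels. Pcdh10, Pcdh17 and Pcdh19 are known to recruit the WAVE complex, which builds branched actin, to cell contacts. Pcdh18 stood at 3.96 ± 0.344 CPM per kb after the burn and 4.07 ± 0.227 in controls, Pcdh17 at 3.62 ± 0.649 and 3.07 ± 0.469, and Pcdh10 at 3.36 ± 1.18 and 3.26 ± 0.686 (burn, then control; SD, n = 3 each). Pcdh17 was above Pcdh10 in 3 of 6 libraries, so their order did not hold beyond the spread. Pcdh19, mutated in a human epilepsy of females, stood at 2.68 ± 0.464 CPM per kb after the burn and 2.16 ± 0.285 in controls. Pcdh8, known as arcadlin and induced by synaptic activity in rat hippocampus, stood at 0.657 ± 0.0501 CPM per kb after the burn and 0.696 ± 0.264 in controls.

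Pcdh19 had the second lowest unadjusted p of the family. It had 33.1, 23.5 and 27.2 CPM after the burn, against 21.4, 25.9 and 20.3 CPM in controls. Burn 1 was the highest of the 6 libraries, and burn 2 lay below control 2. The log2 fold change was 0.31 (SE 0.16, 95% interval -0.06 to 0.69, edgeR unadjusted p 0.0891). Pcdh17 had 39.4, 45.6 and 56.0 CPM after the burn, against 35.9, 36.8 and 46.9 CPM in controls, with a log2 fold change of 0.24 (SE 0.17). The values of Pcdh17 overlapped through control 3, the deeper control library.

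Pcdh10 set the deeper libraries apart from the others. It had 40.2, 44.1 and 74.1 CPM after the burn, against 45.9, 44.2 and 63.7 CPM in controls. Burn 3 and control 3 were the highest, and the other 4 libraries lay between 40.2 and 45.9 CPM. Its log2 fold change of 0.04 (SE 0.26) turned to -0.27 without burn 3. Pcdh18, which binds the adaptor Dab1 in mouse, had the smallest standard error of the family, at a log2 fold change of -0.04 (SE 0.12, 95% interval -0.31 to 0.23). Pcdh8 had 2.65, 2.52 and 2.92 CPM after the burn, against 2.84, 1.78 and 3.95 CPM in controls, a log2 fold change of -0.11 (SE 0.29), and its control values lay on both sides of the burn values. Without control 3 these log2 fold changes were 0.018 for Pcdh18 and 0.21 for Pcdh8.

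Pcdh12 and Pcdh20 completed the non-clustered genes. Pcdh12, known from vascular endothelium, had 4.46, 3.08 and 2.60 CPM after the burn, against 3.85, 4.01 and 4.26 CPM in controls. Its log2 fold change of -0.27 (SE 0.24, edgeR unadjusted p 0.286) was the lowest of the family, and burn 1 lay above all 3 controls. The value was -0.095 without burn 3, where Pcdhb8 was lower at -0.41, and -0.51 without burn 1. The 8 endothelial markers summed to 188 to 251 CPM after the burn and 186 to 267 CPM in controls, with burn 1 the highest burn library for them as well. Among the controls the orders differed, with control 3 highest for Pcdh12 (4.26 CPM) and control 2 for the markers (267 CPM). Pcdh20 was the scarcest non-clustered member, counted with 14, 7 and 47 reads in burn libraries, against 24, 4 and 42 in controls. Its log2 fold change of 0.11 (SE 0.49) turned to -0.26 without burn 3. At 0.0950 ± 0.0465 CPM per kb after the burn and 0.0853 ± 0.0405 in controls it stood next to Pcdh15, at 0.151 ± 0.0107 after the burn and 0.0872 ± 0.0137 in controls. Pcdh15 was the higher of the pair in all 3 burn libraries, while in controls the pair did not differ beyond the spread.

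**Figure D3:**
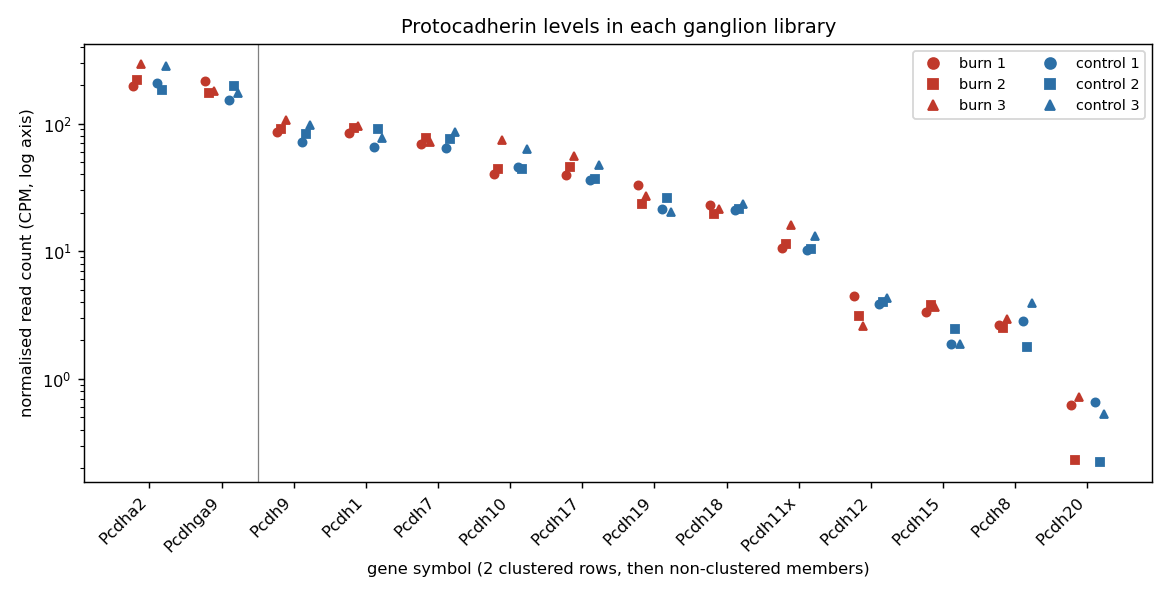
Normalised read count (CPM, log axis) of the alpha row, the gamma row and the 12 non-clustered protocadherins in each library; burn libraries are red and left of the blue control libraries, and marker shapes give the library number. Pcdh15 is the gene here whose burn and control points do not overlap, and for Pcdh10 the triangles, burn 3 and control 3, stand above the rest.

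The alpha and gamma rows held the most reads of the family. Genes of these 2 clusters share constant exons that encode a common cytoplasmic tail, and each adds its own first exon. The annotation places Pcdha2 on chromosome 18 at 36939205 to 37187657 and Pcdhga9 at 37736936 to 37841870. Of 5361 exon bases of Pcdha2, 2501 belong to no other annotated gene, and of 5586 of Pcdhga9, 3470 do. No level per length is given for either row, since the exons behind them are not known.

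The alpha row had 197, 217 and 293 CPM after the burn, against 207, 184 and 280 CPM in controls. Burn 3 and control 3 were the highest of each group, and the other 4 libraries of both groups overlapped. Its log2 fold change was 0.08 (SE 0.21, 95% interval -0.41 to 0.56), and -0.10 without burn 3. The gamma row had 215, 173 and 180 CPM after the burn, against 153, 198 and 174 CPM in controls. In the gamma row the deeper libraries did not stand apart, and burn 1 and control 1 held the extremes. Its log2 fold change was 0.12 (SE 0.14, 95% interval -0.21 to 0.45), and it was 0.015 without burn 1, 0.028 without control 1 and 0.21 without control 2.

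The beta cluster spans 37264938 to 37524479 on chromosome 18, between the other 2 clusters. The annotated exons of each beta gene merge into a single block. Outside the overlaps named below, reads in it thus mark that gene alone. Near-identical stretches could still have removed reads, since alignments to several places were not counted. Of the windows of 75 bases, the read length, in each beta transcript, between 0% (Pcdhb1 and Pcdhb13) and 8.96% (Pcdhb21) also occurred in the transcript of another gene. The annotated ends of Pcdhb21 and Pcdhb22 overlap, and most exon bases of Pcdhb12 lie opposite Gm37446 on the other strand, so these 3 counts are less certain, as the sources used here give no strand setting for the counts.

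All 22 beta genes had reads in every library, at very unequal levels. Pcdhb17, Pcdhb19 and Pcdhb16 had the most reads, and together held 31.5% ± 1.19 of beta reads after the burn and 31.4% ± 1.34 in controls (SD, n = 3 each). Per exon length, Pcdhb17 stood at 2.87 ± 0.466 CPM per kb after the burn and 2.61 ± 0.267 in controls, and Pcdhb9 at 2.69 ± 0.534 and 2.69 ± 0.509. Pcdhb17 was above Pcdhb9 in 5 of 6 libraries, and Pcdhb9 above Pcdhb16, the next certain one, in 6 of 6. Pcdhb12 stood at 2.92 ± 0.451 CPM per kb after the burn and 2.81 ± 0.439 in controls over the 1107 bases with nothing opposite, and at 1.07 and 1.02 over all its exon bases. Since reads over the other bases may be included, its place in the order is not known.

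Levels per exon length tended to be higher on the gamma side of the cluster, though not gene by gene. The 7 genes nearest the gamma cluster, Pcdhb16 to Pcdhb22, had a median of 1.69 CPM per kb over all libraries. The median was 0.823 for the 15 genes Pcdhb1 to Pcdhb15, and this split was not planned. Within the 7 genes the level did not rise steadily, with Pcdhb17 at 2.74 and its neighbour Pcdhb18 at 1.11 CPM per kb. The 7 genes were also the larger part by reads. They held 58.6% ± 1.503 of beta reads after the burn and 57.3% ± 1.24 in controls. These are shares of reads, which favour longer genes, and no share per kilobase was computed for this set. Over the 22 genes the Spearman correlation of chromosome order with CPM per kb was 0.64, with Pcdhb12 taken over its bases with nothing opposite. Pcdhb9 stood at 2.69 CPM per kb in both groups, above its neighbours Pcdhb8 and Pcdhb10.

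Pcdhb1, the first gene of the cluster, was the exception at the low end. Its reads numbered 1, 1 and 4 in burn libraries, against 1, 1 and 1 in controls, too few to be tested. Pooled by group, burn stood 2.22 times above control, and the exact 95% interval for counting error alone ran from 0.473 to 13.7. The next lowest gene per length, Pcdhb8, stood at 0.333 ± 0.0675 CPM per kb after the burn and 0.393 ± 0.128 in controls, above Pcdhb1 in 6 of 6 libraries.

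**Figure D4:**
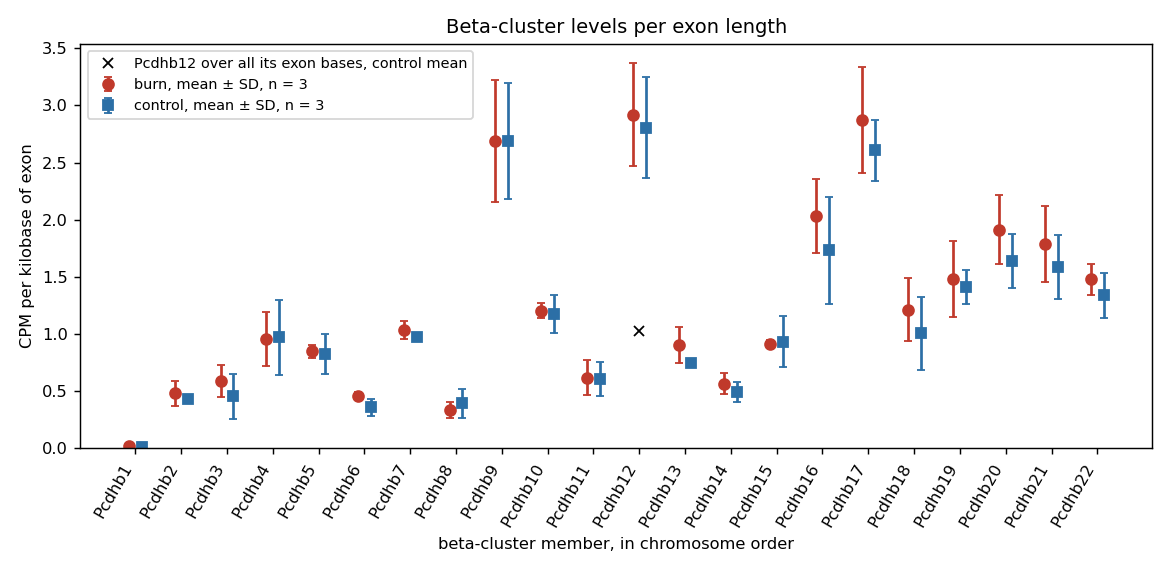
Level per exon length (CPM per kilobase of exon bases that no other annotated gene covers) of the 22 beta-cluster genes in chromosome order; points are means and bars SD (n = 3), with burn in red left of control in blue, and the cross is Pcdhb12 over all its exon bases. Pcdhb1 lies near 0, Pcdhb9 and Pcdhb17 stand near 2.7, and the burn and control bars of each gene overlap.

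The make-up of the beta cluster was closely shared by the groups. Between any 2 of the 6 libraries the Spearman correlation of the 22 levels was at least 0.921, and between the burn and control means it was 0.991. These correlations run across genes of the same libraries and share gene length and base composition. The beta sum was 103, 98.3 and 127 CPM after the burn, against 90.2, 91.9 and 117 CPM in controls. Burn 3 and control 3 were the highest of their groups, and the groups overlapped through control 3. The log2 ratio of the means was 0.13, and 0.014 without burn 3.

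Of the 21 tested beta genes, 0 were called by edgeR, and 0 had an unadjusted p under 0.05 in either direction. The log2 fold changes ran from -0.23 to 0.36, with a median of 0.14, and 18 were above 0. Pcdhb6 was the beta gene whose groups did not overlap, with 1.68, 1.59 and 1.86 CPM after the burn, against 1.04, 1.56 and 1.42 CPM in controls. Burn 2 and control 2 were 0.03 CPM apart, and the log2 fold change of 0.36 (SE 0.24) had an unadjusted p of 0.167. Together with Pcdh15 this gave 2 of 35 members (5.71%) with higher, separate burn values, close to the 4.33% over all genes, and 0 with lower ones, against 2.91% (7.24% either way). Pcdhb17 had 12.1, 12.2 and 15.9 CPM after the burn, against 11.1, 11.8 and 13.5 CPM in controls, so its groups overlapped only through control 3 (log2 fold change 0.14, SE 0.16). Pcdhb16 had 9.98, 9.34 and 12.5 CPM after the burn, against 8.55, 6.90 and 11.7 CPM in controls (log2 fold change 0.22, SE 0.22). Pcdhb19 had 10.5, 8.25 and 12.9 CPM after the burn, against 9.97, 9.07 and 11.2 CPM in controls (log2 fold change 0.067, SE 0.19). For these 3 genes, the most read of the cluster, burn 3 was the highest of the 6 libraries, and the value of Pcdhb19 turned to -0.10 without burn 3. Nearest to 0 were Pcdhb9 (0.00, 95% interval -0.48 to 0.48), Pcdhb10 (0.02, -0.42 to 0.46) and Pcdhb4 (-0.02, -0.71 to 0.66). Pcdhb8 had the lowest beta value (-0.23, SE 0.32), which stood at 0.039 without control 3. The signs of Pcdhb9, Pcdhb10 and Pcdhb4 also turned as single libraries were left out.

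The 2 deeper libraries separated more members from the other 4 libraries than burn did from control. In 17 of the 35 tested members (48.6%) both deeper libraries stood above all 4 shallower ones, and in 0 below, where 15.2% and 15.4% of all genes tested did so. The 17 comprised the alpha row, 11 beta genes (Pcdhb2, Pcdhb3, Pcdhb4, Pcdhb9, Pcdhb11, Pcdhb14, Pcdhb16, Pcdhb17, Pcdhb18, Pcdhb19 and Pcdhb21) and Pcdh8, Pcdh9, Pcdh10, Pcdh11x and Pcdh17. By the ratio of the deeper to the shallower libraries Pcdh10 led them, with burn 3 above the mean of burn 1 and burn 2 by 0.81 on the log2 scale and control 3 above the mean of control 1 and control 2 by 0.50. For the alpha row these differences were 0.50 and 0.52. The gamma row, at -0.11 and -0.01, and Pcdh19, at -0.06 and -0.22, did not share them. Burn 3 also carries the ipsilateral title, and control 3 has no such title. Sums of some marker lists also set these 2 libraries apart from the other 4. Skeletal muscle markers stood at 1444 CPM in burn 3 and 566 CPM in control 3, against 2330 to 9710 CPM in the others. Macrophage markers stood at 139 and 122 CPM, against 172 to 274 CPM. Satellite glia markers stood at 3803 and 3882 CPM, against 2894 to 3335 CPM. Sums of the other marker lists overlapped. The part of these markers in the member values was not tested, nor was what else sets the 2 libraries apart.

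**Figure D5:**
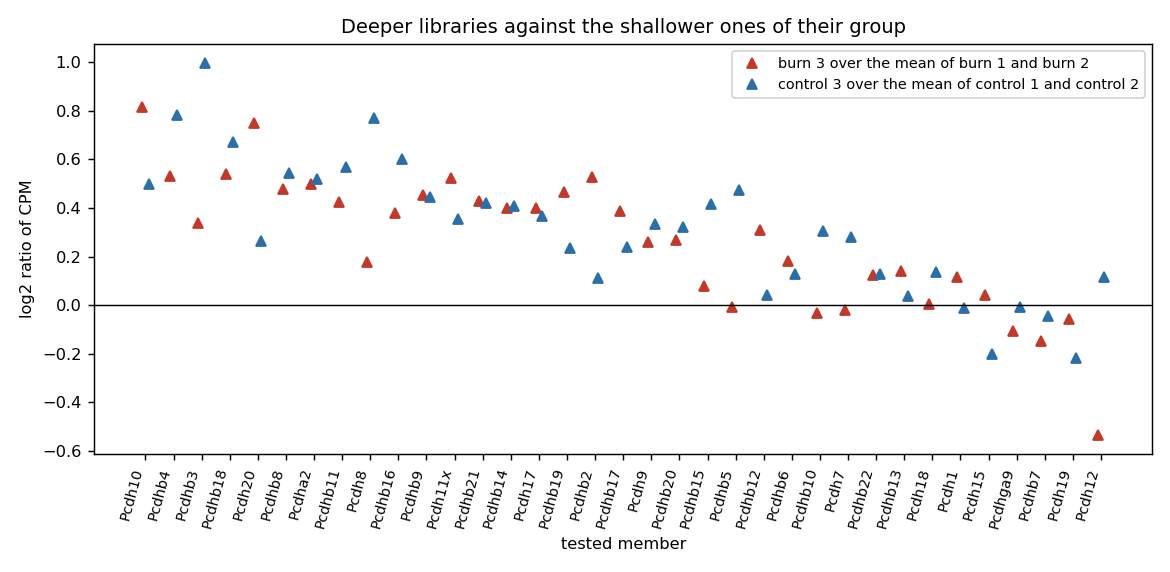
Log2 ratio of CPM of burn 3 over the mean of burn 1 and burn 2 (red) and of control 3 over the mean of control 1 and control 2 (blue) for each tested member, ordered by the ratio of the 2 deeper to the 4 shallower libraries. Most members lie above 0 in both groups, with Pcdh10 at the left (0.81 and 0.50) and Pcdh12 at the right (-0.54 and 0.12).

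Of the genes that regulate or partner the protocadherins none passed either. CTCF and cohesin, which loop enhancers to the cluster promoters, were measured with their loaders and with methylation enzymes. All 16 tested genes of that list had 0 calls by edgeR and 0 at an unadjusted p under 0.05, 8 had values above 0 and 8 below, and the median log2 fold change was 0.02. Among its genes Pds5b, a cohesin regulator, stood at 0.27 (SE 0.17) and Mau2, a cohesin loader, at -0.14 (SE 0.10). The 6 proteases that cut protocadherins had a median of 0.10, with Psen2, a gamma-secretase subunit, at -0.25 (SE 0.13), Adam10, which sheds extracellular domains, at 0.22 (SE 0.25), and Ncstn, another gamma-secretase subunit, at 0.12 (SE 0.14).

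All 9 genes of the WAVE complex had log2 fold changes above 0 (0.00087 to 0.75, median 0.08), with 0 called, where 52.1% of all genes tested were above 0. Wasf1, its neuronal WAVE protein, had 14.8, 13.97 and 27.9 CPM after the burn, against 10.2, 12.4 and 11.3 CPM in controls. All burn libraries stood above the controls, and burn 3 stood far above the other burn libraries (log2 fold change 0.75, SE 0.27, edgeR unadjusted p 0.0263). Cyfip2 (0.24, SE 0.12) and Nckap1 (0.23, SE 0.17), 2 further subunits, had the next lowest p. Among 10 kinases and other partners, with a median of 0.11 and 0 called, Dab1 had 2.87, 2.22 and 3.27 CPM after the burn, against 1.72, 1.502 and 1.78 CPM in controls. Its groups did not overlap (log2 fold change 0.73, SE 0.23, unadjusted p 0.0122, adjusted p 0.9998 by edgeR). Nlgn2, a postsynaptic adhesion protein, had 0.33 (SE 0.14, edgeR unadjusted p 0.0453) and Ptk2, the focal adhesion kinase, 0.15 (SE 0.09). Cyfip2, Nlgn2 and Ptk2 also stood higher in every burn library than in every control library, as did 4.33% of all genes tested. The genes named were those with the lowest p of each list. Of all 41 tested partners and regulators, 3 were higher and 0 lower at an edgeR unadjusted p under 0.05, against 2.04% and 0.924% of all genes. Spinal cord markers moved the same way as Wasf1 and Dab1, and their part in these values was not tested.

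The rest of the cadherin superfamily showed a like picture. By name 48 genes were taken (symbols of Cdh and a number, Celsr, Fat, Dchs, desmosomal cadherins, calsyntenins and cadherin-related genes). Of the 48, 37 were tested, 0 were called by edgeR and 0 had an unadjusted p under 0.05. Of the 37 tested, 24 had values above 0 and 13 below, with a median log2 fold change of 0.06, against 0.12 over the 35 tested protocadherins. The lowest p belonged to Clstn2, a calsyntenin (0.19, SE 0.11), Cdhr1, a photoreceptor cadherin (0.18, SE 0.11), and Dsg2, a desmosomal cadherin (0.61, SE 0.40).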

How the data were processed

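Each library has 1 table of whole-number read counts by gene symbol, as the authors deposited it. Per the submitters' processing notes the tools were STAR, SAMtools and HTSeq (no versions) on mm10, also listed as GRCm38. The sources used here give no annotation release, counting mode or strand setting. The tables end with 5 tally lines that name no gene and hold 49.18% to 56.22% of entries. They were left out of library sizes. Non-unique alignments made up 34.7% to 42.8% of entries. The reads carry no molecular identifiers, and counting intervals cover counting error only.

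The test was edgeR 4.0.16 under R 4.3.3: filterByExpr (minimum count 10, minimum total 15; 17534 genes), TMM scaling, estimateDisp and glmQLFit, both robust, and a two-sided glmQLFTest on group alone, with Benjamini-Hochberg adjustment over all genes tested. The SE is the log2 fold change divided by the square root of F. CPM uses TMM-scaled library sizes. Alternatives used limma 3.58.1 and DESeq2 1.42.0, other scalings and filters, an adjusted p under 0.1, a depth term, blocks and libraries left out. The fit was tested on simulated data.

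Exon lengths and overlaps came from GENCODE M21 (all 36 members matched by symbol), and promoters from RefSeq. Members and gene lists were chosen with earlier results of these data known. Named with values are the non-clustered members, the alpha and gamma rows, the 3 beta genes with most reads and the lowest, the 5 members with the lowest p in each direction, the 3 nearest 0, and up to 3 genes per list, of which 1 is not reported here. Other genes named, such as Pcdhb3, Pcdhb12, Chat and Olig1, were chosen after their values were seen. Figures were drawn with matplotlib 3.10.9.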

Additional observations from a re-analysis of the deposited data

How the results depend on the processing

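No protocadherin was called, in either direction, in any of the 17 alternative settings run with edgeR, DESeq2 or limma-voom, and at most 3 members had a higher and 0 a lower value at an unadjusted p under 0.05. The log2 fold change of Pcdh15 stayed between 0.74 and 0.93 over them, with an unadjusted p of 0.00067 to 0.0431 and an adjusted p of 0.119 to 1. Log2 ratios of summed levels moved by less than 1 SD in all settings run. So did the share of beta reads in Pcdhb17, Pcdhb19 and Pcdhb16, except when counted per kilobase. Then these genes held 23.3% of the beta total after the burn and 22.9% in controls.

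Counts of calls over all genes moved more, and the cause was not tested. They were 14 higher with no filter, 7 at an adjusted p under 0.1, 28 with DESeq2, 17 higher and 21 lower with the depth term, and 11 higher and 4 lower with the 4 shallower libraries alone. Leaving out each library in turn gave 1 to 6 higher and 0 lower.

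The numbers 1 and 2 are shared by titles of both groups, and the labels do not say that they pair samples. With the replicate block on these 4 libraries 4 genes were higher and 0 lower, and 0 protocadherins were called. Deviations of same-numbered libraries correlated at -0.385, and a crossed block, chosen after seeing the data, gave 103 higher and 310 lower genes and 0 protocadherins.

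Of 594 values of single members under alternatives, 66 in 17 members had the opposite sign, none of them called. For the members described above whose sign turned, leaving out each library in turn gave log2 fold changes of -0.27 to 0.24 for Pcdh10, -0.020 to 0.31 for Pcdh11x, -0.10 to 0.024 for Pcdh18, -0.26 to 0.44 for Pcdh20, -0.14 to 0.068 for Pcdh7, -0.34 to 0.21 for Pcdh8, -0.099 to 0.28 for Pcdha2, -0.069 to 0.14 for Pcdhb10, -0.10 to 0.22 for Pcdhb19, -0.22 to 0.31 for Pcdhb4, -0.47 to 0.039 for Pcdhb8 and -0.16 to 0.18 for Pcdhb9. With the 4 shallower libraries alone they were -0.081 for Pcdh10, 0.022 for Pcdh18, -0.24 for Pcdh20, 0.081 for Pcdh7, 0.14 for Pcdh8, -0.015 for Pcdhb19 and 0.11 for Pcdhb4. With the replicate block they were -0.082, 0.019, -0.028, 0.081, 0.20, -0.015 and 0.099 for the same 7 genes in that order, and with the crossed block -0.081, 0.013, -0.28, 0.084, 0.15, -0.030 and 0.11. Pcdhb9 stood at -0.012 with upper quartile scaling, -0.010 with no filter and -0.0024 with DESeq2, Pcdhb10 at -0.013 with limma-voom, and Pcdhb4 at 1.8e-06 with the depth term. Depth limits Pcdh20 and Pcdhb1 most, with 4 to 47 and 1 to 4 reads per library.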
